A study of Mus musculus with 45 samples.

Results

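The progress of transcription waves was followed in WT/slow mouse embryonic stem cells (ESCs), which carry 1 wild-type and 1 R749H allele of Polr2a, between 5 and 15 min after removal of the elongation inhibitor DRB. Members were the transcripts at least 20 kb long, from the annotated start to the annotated end, that had a wave-front boundary in each of the 3 samples taken at 5 min and each of the 3 taken at 15 min. These conditions left 26570 of 122968 transcripts in each table, out of 35031 that were long enough and 34995 that had all 6 boundaries. Nascent RNA was measured by 4sU-DRB-seq, with 3 replicates for each time in WT/slow ESCs and in ESCs of the WT/WT and slow/slow genotypes. The WT/slow cells were made by gene targeting and grown, like the others, in 2i medium on gelatin. All cells used here had received DRB for 4 h, and the uridine analogue 4sU was present for the last 10 min before harvest. WT/WT cells carry no mutant allele and slow/slow cells carry it on both copies, and both serve here only for comparison. Each boundary is the distance from the start site at which software placed the wave's end, in bases and in steps of 100. Forward, backward and fall describe changes of this value, and not newly made RNA seen directly.

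RNA polymerase II (RNAPII) starts transcription at promoters and pauses shortly downstream until the kinase P-TEFb releases it into productive elongation. DRB blocks that kinase, so that polymerases already in gene bodies run off while new ones wait near the start, and washing the drug away lets them leave together as a wave. The distance the front of this wave covers between harvests, divided by the time, is a measure of elongation rate, provided that the front is still inside the gene. R749H lies in the large subunit of RNAPII, and the study calls the mutant enzyme slow.

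The members belonged to 8923 genes and had 23789 distinct start sites, with up to 53 transcripts for a gene. Transcripts of a gene share reads, and 4669 members had the same 6 boundaries as another member of their gene, so counts of transcripts are not counts of independent genes. Sequencing depth is unknown, since the values are distances and not counts. Over members, Spearman's rho between replicates lay from 0.328 to 0.527 after 5 min and from 0.428 to 0.554 after 15 min, given here as a description. The boundaries carry no expression level and could not check the cell type by marker abundance: 4 of 10 ESC markers, among them Esrrb and Tfcp2l1, had a transcript with 6 boundaries, and so did 4 of 8 neural, 3 of 8 fibroblast and 2 of 8 endoderm and mesoderm markers.

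Over the members as a whole, fronts did not simply move outwards. The median boundary after 5 min was 7500, 12000 and 8700 bases in replicates 1, 2 and 3, and after 15 min it was 3200, 4400 and 4800 bases. All 3 samples taken at 15 min lay below all 3 taken at 5 min, and the means were 9400 ± 2330 and 4133 ± 833 bases (SD, n = 3, exact two-sided permutation test, p = 0.1, the smallest that 3 against 3 allows). Transcript by transcript, the mean boundary was farther out after 15 min in 13961 members (52.5%), nearer the start in 11677 (43.9%) and equal in 932. The rate, defined as the difference of the mean boundaries divided by 10 min, had a median of 43.3 bases/min, quartiles of -490.0 and 876.7 bases/min, and extremes of -4220 and 4273 bases/min.

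Both directions passed the main test across transcripts, which used no replicate block. Of the 25704 members whose 6 boundaries were not all identical, 1414 (5.50%) moved forward and 2083 (8.10%) moved backward in limma with Benjamini-Hochberg adjustment over all 32185 transcripts fitted and an adjusted p under 0.05. Over all those transcripts, the shares were 4.43% forward and 7.80% backward. In 3543 members, 13.8% of those tested against 11.6% of all transcripts fitted, every 15-min boundary lay beyond every 5-min boundary. In 4222, or 16.4% against 16.5%, every 15-min boundary lay short of every 5-min boundary. The members' shares lay near those of all transcripts, to which the members contribute most. The backward count rose to 3750 without replicate 1 at 5 min and fell to 1334, 1104 and 1375 without replicates 1, 2 and 3 at 15 min, and the forward count fell to 857 without replicate 3 at 5 min. With the replicate number fitted as a block, limma called 0 members forward and 0 backward. At an unadjusted p under 0.05 that fit held 3000 forward and 3224 backward.

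Much of the backward movement ended at a single value. The sources used here do not say what a boundary of 2500 bases stands for, but it was the commonest value in every sample and is counted apart. It made up 26.3%, 19.8% and 24.4% of the members' boundaries in the samples taken at 5 min, and 45.5%, 40.7% and 40.9% at 15 min. The groups did not overlap, and the means were 23.5% ± 3.30 and 42.4% ± 2.70 (SD, n = 3, exact two-sided permutation test, p = 0.1). All 3 boundaries were at 2500 bases in 1982 members after 5 min and in 5820 after 15 min, and 849 members were there in all 6 samples. Of the 2083 transcripts called backward, 1666 (80.0%) stood at 2500 bases in all 3 samples taken at 15 min, and 45 stood there in none. In those 1666 the 15-min values have no spread, so the error in limma rests on the 5-min samples and on other transcripts. Their SEs and p therefore do not measure spread at 15 min. Of the 1414 called forward, 342 had at least 1 boundary at 2500 bases after 5 min, 45 of them all 3, and none had one after 15 min.

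The sign of the rate, whether or not it passed the test, differed with transcript length. In the 5966 members of 20 to 30 kb, the rate was negative in 76.5% and positive in 20.2%, with a median of -503 bases/min, and limma called 21.1% of those tested backward and 0.587% forward. In the 9162 members of 30 to 60 kb, 51.2% were negative, with a median rate of -18.3 bases/min, and 8.79% were called backward and 3.81% forward. The 4807 members of 60 to 100 kb, the 3839 of 100 to 200 kb and the 2796 of 200 kb or more had positive rates in 74.5%, 75.1% and 75.9% of cases, with medians of 720, 736.7 and 573 bases/min. Forward calls made up 9.31%, 9.705% and 9.285% of those tested in these classes, and backward calls 1.16%, 0.617% and 0.152%. Of the 2083 backward calls, 2002 were in transcripts under 60 kb, whereas 1041 of the 1414 forward calls were in transcripts of 60 kb or more. By sample, the median boundary of all members of 60 kb or more was 7600, 11000 and 7200 bases after 5 min. After 15 min it was 9000, 13600 and 18300 bases, which overlapped with 5 min (exact two-sided permutation test, p = 0.2).

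**Figure D1:**
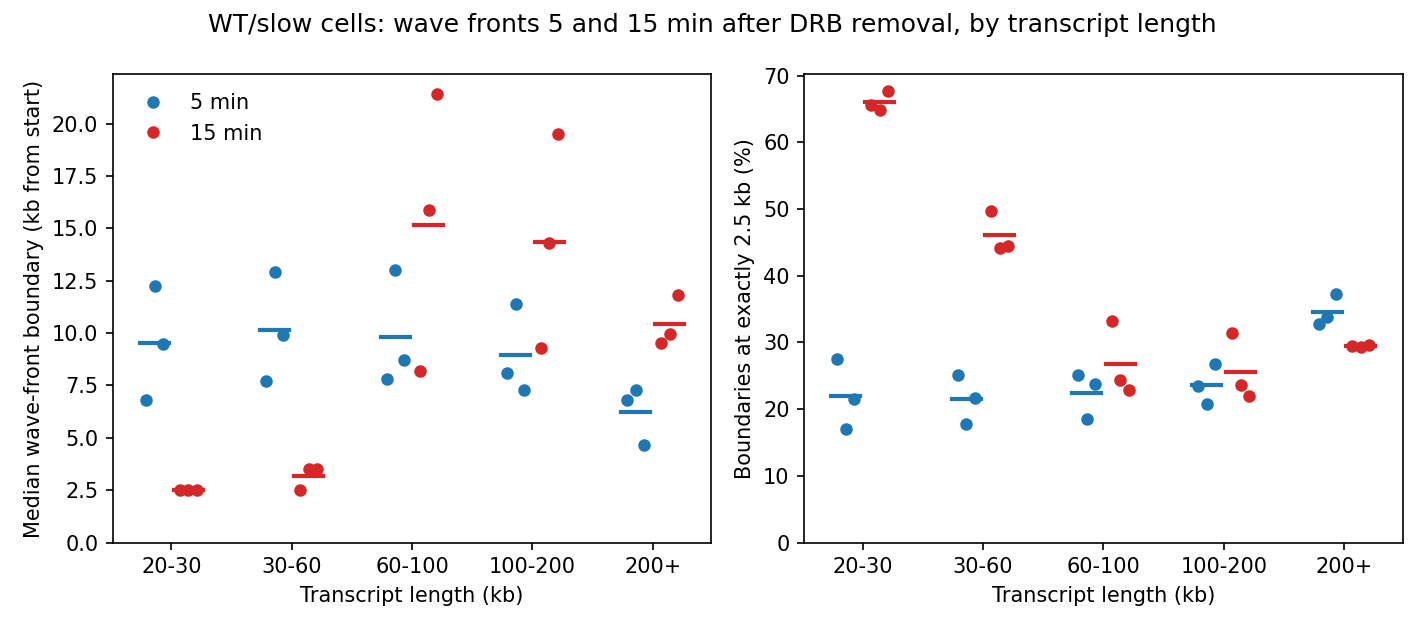
Median wave-front boundary in kb from the start (left) and percent of boundaries at exactly 2.5 kb (right) in WT/slow cells, by transcript length in kb. Points are the 3 samples of each time and lines their means, with 5 min in blue and 15 min in red. In transcripts of 20 to 30 kb the mean share at 2.5 kb was 22.04% after 5 min and 66.03% after 15 min, when the medians stood at 2500 bases in all 3 samples. From 60 kb upwards the mean of the medians was higher after 15 min. The samples of the times overlapped at 60 to 100 kb (exact two-sided permutation test, p = 0.3) and 100 to 200 kb (p = 0.2), but not at 200 kb or more (p = 0.1).

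The share of boundaries at 2500 bases followed the same order of lengths. In transcripts of 20 to 30 kb it was 27.6%, 17.0% and 21.6% after 5 min and 65.6%, 64.8% and 67.7% after 15 min. In transcripts of 60 to 100 kb it was 25.2%, 18.5% and 23.7% after 5 min and 33.2%, 24.3% and 22.9% after 15 min. The samples thus stood far apart in the short class, whereas in the class of 60 to 100 kb they overlapped and the difference of 4.34 percentage points was within their spread (exact two-sided permutation test, p = 0.5). At 200 kb or more the order was turned, with 34.6% ± 2.33 after 5 min and 29.5% ± 0.156 after 15 min (SD, n = 3, exact two-sided permutation test, p = 0.1), with no overlap. In all members of 60 kb or more together it was 25.8% ± 2.58 after 5 min and 27.1% ± 4.02 after 15 min (SD, n = 3, exact two-sided permutation test, p = 0.7).

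The threshold of 20 kb itself marked no step. The 585 members of 20 to 21 kb had a median rate of -396.7 bases/min and the 573 transcripts of 19 to 20 kb just outside had -320.0 bases/min.

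Fronts that stayed above 2500 bases in all 6 samples had positive rates for the most part. This set held 6232 members of 2833 genes, 23.5% of all, and its median boundary was 10500, 14200 and 11200 bases after 5 min and 21000, 24900 and 26600 bases after 15 min. Every 15-min sample exceeded every 5-min sample, and the means were 11970 ± 1970 and 24170 ± 2870 bases (SD, n = 3, exact two-sided permutation test, p = 0.1). The median rate was 1110 bases/min, with quartiles of 266.7 and 1903 bases/min, and 84.0% of rates were positive, while limma called 17.2% of those tested forward and 0.611% backward. In the 3932 of these transcripts that were 60 kb or longer, the median rate was 1493 bases/min and 91.2% of rates were positive. In the 472 of 20 to 30 kb it was -16.7 bases/min, with 48.5% positive, so the order by length remained within this set. The set was chosen by boundaries at both times, so its rates describe only fronts that stood beyond 2500 bases throughout.

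**Figure D2:**
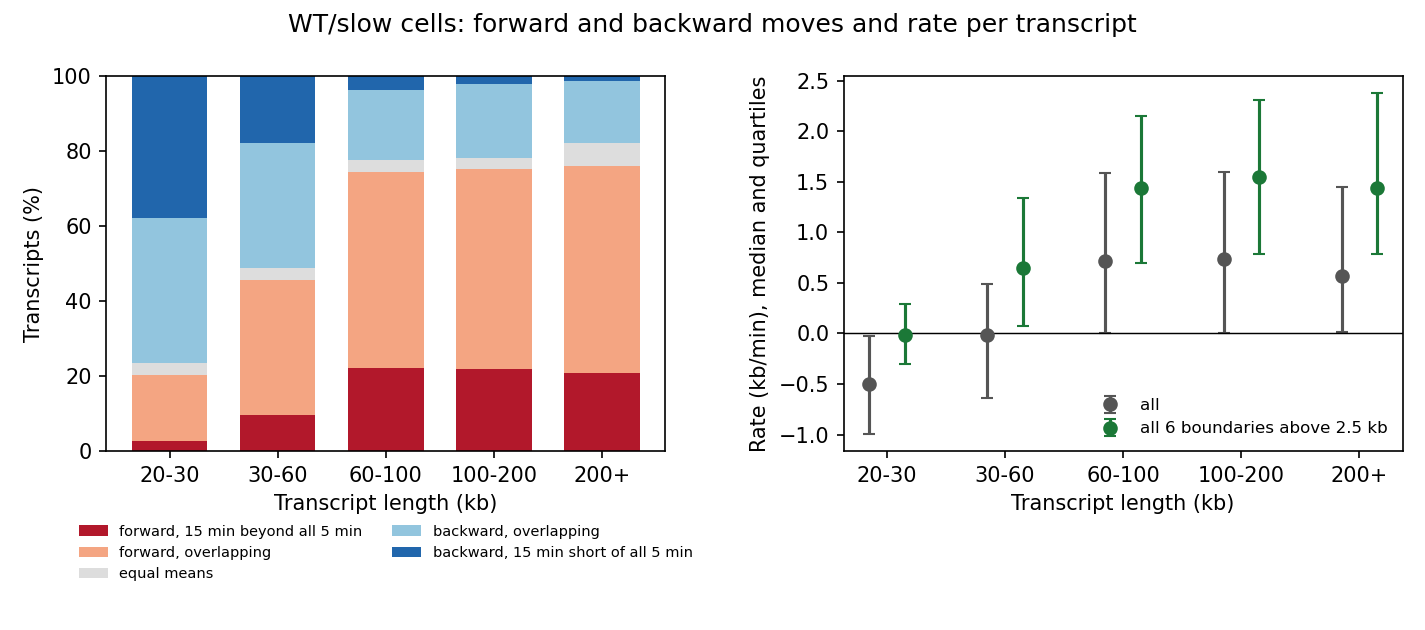
Left, percent of members in each length class with a positive (forward) or negative (backward) rate between 5 and 15 min, called or not, split by whether the 3 samples of each time overlap. Right, rate in kb/min by length class, with medians as points and quartiles as bars, for all members and for those with all 6 boundaries above 2.5 kb. Negative rates outnumbered positive ones only below 60 kb, and in the second set the median rate rose from -16.7 bases/min at 20 to 30 kb to 1547 bases/min at 100 to 200 kb.

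Each gene was then read at a single transcript, the longest member. The fast genes were the 10 highest rates, of which 8 are reported here, and the slow genes the 10 lowest rates above 0, among 347 protein-coding genes with all 6 boundaries above 2500 bases, a forward call and no overlap between the times. Since the rates themselves chose them, and only large or very even moves can pass, their values describe the extremes and are not estimates for other genes.

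The fast genes had rates of 3807 to 4223 bases/min. Myo6, an unconventional myosin that moves towards the minus end of actin filaments (ENSMUST00000035889, chr9:80165031-80311729, plus strand, GRCm38), had boundaries of 5.2, 12.5 and 8.3 kb after 5 min and of 57.4, 41.4 and 53.9 kb after 15 min. Its front crossed 42.2 kb ± 4.80 (SE) inside intron 1, a rate of 4223 bases/min (limma, adjusted p = 0.00807). Pcx, the mitochondrial pyruvate carboxylase, went from 6.9, 15.4 and 6.5 kb to 58.2, 52.2 and 43.1 kb within intron 2, at 4157 bases/min. Sertad2 (chr11:20543334-20653021, plus strand) had the smallest SE of these genes, with 9.2, 14.3 and 9.3 kb against 49.7, 53.0 and 45.2 kb within intron 1 and a rate of 3837 bases/min ± 266 (SE). Over the 8 genes no 5-min boundary lay beyond 18.2 kb and no 15-min boundary short of 40.8 kb. The farthest 15-min front among them was 58.2 kb, and the farthest of any member in the 3 samples was 59200, 58500 and 58600 bases. No front lay farther out, although 2796 members were 200 kb or longer. Whether the wave caller limits the distance, which would cap the fast rates, was not tested.

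The other fast genes were of mixed function. Cblb, a ubiquitin ligase that restrains lymphocyte signalling, went from a mean of 9.83 kb to 48.4 kb. Gli3, a transcription factor of Hedgehog signalling, went from 9.33 to 47.5 kb in a gene of 266 kb. Slit2, a secreted axon guidance cue that repels growth cones through Robo receptors, went from 13.1, 11.7 and 8.7 kb to 54.3, 50.7 and 42.7 kb. Tent4b, a non-canonical poly(A) polymerase, and Tbc1d12 had rates of 3813 and 3857 bases/min.

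The slow genes had rates of 676.7 to 1080 bases/min. Kcnc2, a voltage-gated potassium channel of fast-spiking neurons (ENSMUST00000092175, chr10:112271123-112466304, plus strand), had boundaries of 6.5, 4.0 and 5.5 kb after 5 min and of 13.1, 10.3 and 12.9 kb after 15 min, at 676.7 bases/min ± 135 (SE; limma, adjusted p = 0.0369). The 30-min boundaries of Kcnc2 were 3.2, 28.5 and 2.5 kb. Of its 6 boundaries at 5 and 15 min, 5 stood at 2500 bases in WT/WT cells and 1 in slow/slow cells. Kcnk10, a potassium channel of the leak type, went from 11.2, 13.0 and 11.5 kb to 21, 22.0 and 24.6 kb. Dicer1, the nuclease that matures miRNAs (chr12:104687742-104751952, minus strand), went from 13.4, 18.9 and 13.4 kb in intron 1 to 26.6, 24.6 and 26.9 kb in intron 6, at 1080 bases/min ± 196 (SE; limma, adjusted p = 0.0281). The samples of each gene were close together at both times, with SDs of at most 3.18 kb. Mapk14, the stress kinase p38α, and Hdac5, a class IIa histone deacetylase, had rates of 1003 and 1063 bases/min. Larp6, Pafah1b2, Fmr1nb, Ncoa7 and Osbpl2 lay between 816.7 and 1020 bases/min. Of the 10 slow genes, 5 (Larp6, Pafah1b2, Fmr1nb, Osbpl2 and Hdac5) were 25.8 to 43.4 kb long, whereas the shortest of the fast genes, Tent4b, was 60.5 kb long. The slow calls rested on small differences, and all but that of Kcnk10 were lost in 4 or 5 of the 6 fits that left out a sample, with an adjusted p in limma of up to 0.086 for Dicer1 and up to 0.108 for Kcnc2. The 8 fast genes passed in all 6 such fits. With trend and robust variance in limma, all 10 slow calls were lost, that of Kcnk10 included, while the 8 fast calls were kept. With the replicate number fitted as a block, all 50 named calls were lost, the fast and slow ones included.

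The promoters of the fastest and the slowest of these genes, read as the 250 bases before the start in GRCm38.p6 with CG dinucleotides in capitals, are shown because CG content of the promoter was among the few features that went with rate in the larger groups described later. The Myo6 window (chr9:80164781-80165030, plus strand) held 18 CG and the Kcnc2 window (chr10:112270873-112271122, plus strand) held 5, against a median of 14 over the same window of all 8923 member genes. In the larger groups the medians were 12 in the slow, 19 in the middle and 19 in the fast group. The Myo6 count thus lay just below the median of the fast group.
Myo6: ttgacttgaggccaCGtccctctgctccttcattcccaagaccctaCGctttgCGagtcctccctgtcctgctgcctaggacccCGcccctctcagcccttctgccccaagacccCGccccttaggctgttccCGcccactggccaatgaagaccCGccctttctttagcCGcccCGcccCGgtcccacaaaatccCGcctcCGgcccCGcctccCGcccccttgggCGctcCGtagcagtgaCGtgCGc
Kcnc2: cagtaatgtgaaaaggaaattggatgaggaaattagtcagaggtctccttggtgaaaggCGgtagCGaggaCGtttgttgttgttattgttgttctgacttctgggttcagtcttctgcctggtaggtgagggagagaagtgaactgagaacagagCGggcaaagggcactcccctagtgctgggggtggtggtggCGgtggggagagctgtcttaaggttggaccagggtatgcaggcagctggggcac

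Backward genes that did not reach 2500 bases were few. Of the protein-coding genes, 14 had all 6 boundaries above 2500 bases, a backward call and no overlap, and the 6 largest falls are named. Desi1, a deSUMOylating isopeptidase (ENSMUST00000129039, chr15:81994645-82033862, minus strand), had boundaries of 26.4, 34.5 and 29.8 kb after 5 min and of 9.3, 9.2 and 9.2 kb after 15 min, a fall of 21 kb ± 2.26 (SE; limma, adjusted p = 0.00705). The 3 samples taken at 30 min stood at 9.3, 9.2 and 9.2 kb too. B3galnt2, a glycosyltransferase, fell from 15.3, 20.6 and 23.7 kb to 4.5 kb in all 3 samples, and Mapkapk2, a kinase downstream of p38, from 20.8, 16.2 and 15.1 kb to 4.3 kb in all 3. March2 went to 2.8 kb in all 3, Haus7, a subunit of the augmin complex of spindle microtubules, to 4.0, 4.0 and 3.9 kb, and Ptdss2, a phosphatidylserine synthase, to 3.1, 3.1 and 5.9 kb. With a sample left out, March2 was lost in 5 of 6 fits, B3galnt2 and Ptdss2 in 4 and Mapkapk2 in 1 (limma, adjusted p up to 0.134), and Desi1 and Haus7 in none. All 6 calls were lost with trend and robust variance. Of the 6 genes, 5 had 15-min boundaries within 100 bases of each other, while their 5-min boundaries had SDs of 3.02 to 4.74 kb.

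The place where the Desi1 fronts stood after 15 min lay in intron 3 of the transcript, 760 bases from the annotated start of Xrcc6 on the plus strand. The next nearest case, Mapkapk2, lay 1377 bases from the start of Gm37084, and the other fronts were nearest to the start of their own gene, 2489 to 4500 bases away. The Desi1 sequence is shown with 50 bases on either side (chr15:82024513-82024712, minus strand, GRCm38.p6). Capitals mark the 100 bases between the lowest and the highest of the 3 boundaries, and 43.5% of the window is marked as repeat in the reference.
Desi1: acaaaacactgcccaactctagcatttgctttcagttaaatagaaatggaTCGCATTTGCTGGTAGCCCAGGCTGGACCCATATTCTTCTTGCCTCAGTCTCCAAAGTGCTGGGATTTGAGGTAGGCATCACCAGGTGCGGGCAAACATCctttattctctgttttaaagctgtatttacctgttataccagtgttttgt

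Falls to 2500 bases in all 3 samples were far more common, in 576 protein-coding genes. The largest were in Usp53, a tight-junction protein of the ubiquitin-specific protease family, from 27.6, 21.7 and 41.3 kb, and in Hdhd2, from 22.7, 32.4 and 30.7 kb. Pfkfb2, which sets the level of the glycolytic regulator fructose-2,6-bisphosphate, fell from 31.1, 23.1 and 23.6 kb, and Ppp2r5a, a regulatory subunit of the phosphatase PP2A, from 22.4, 23.4 and 28.5 kb. The 5-min fronts of Usp53 were the most uneven of these, with an SE of 5.24 kb on a fall of 27.7 kb (limma, adjusted p = 0.0320, and up to 0.0936 with a sample left out, where 4 of 6 fits lost the call). The 4 genes were 38.98 to 53.0 kb long.

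**Figure D3:**
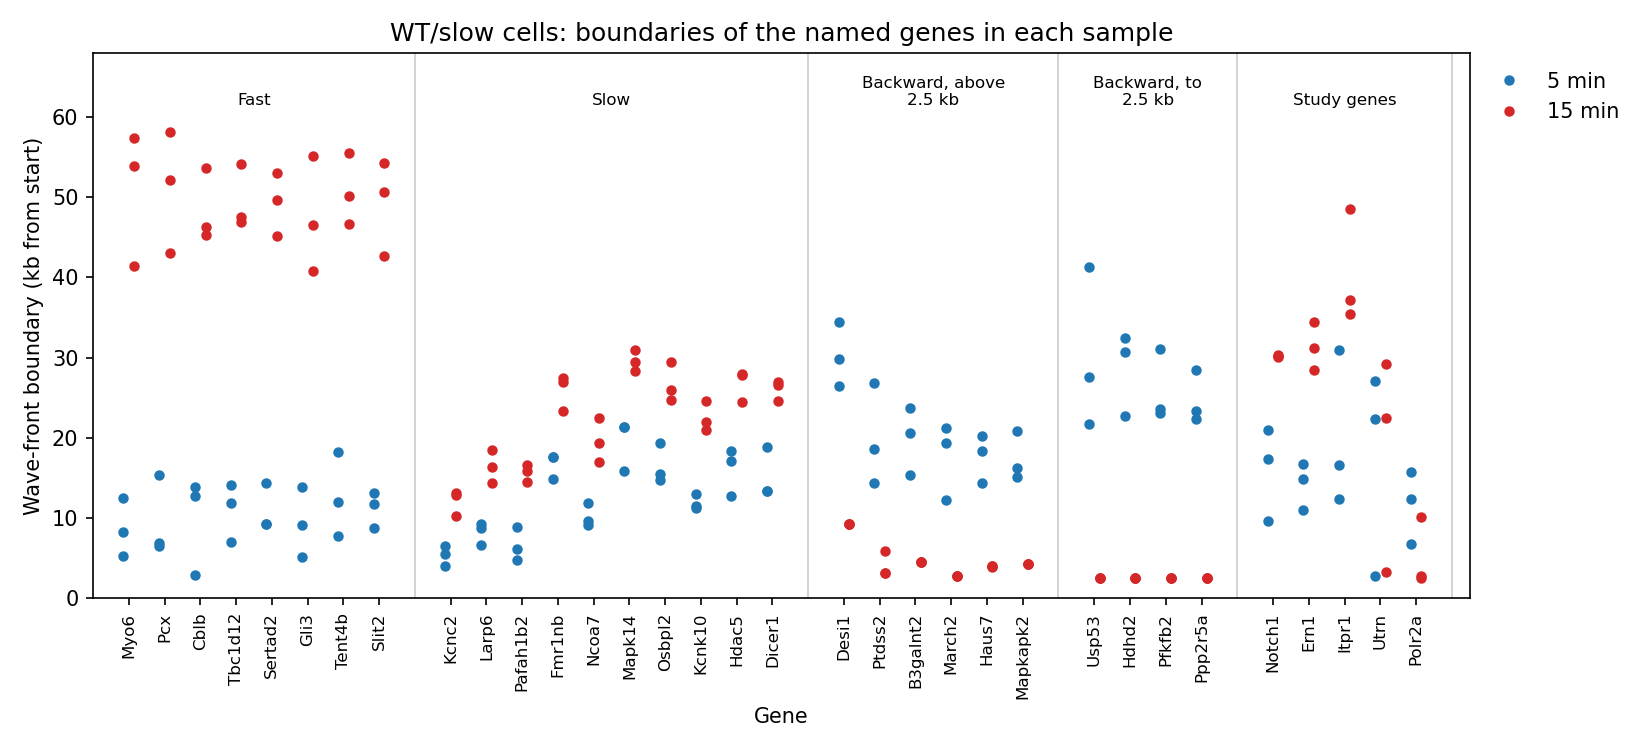
Boundaries in kb from the start in each of the 3 samples taken 5 min (blue) and 15 min (red) after DRB removal, for the named fast, slow and backward genes and for Notch1, Ern1, Itpr1, Utrn and Polr2a. Fast genes ended between 40.8 and 58.2 kb, slow genes between 10.3 and 30.9 kb, and most backward genes at a position shared by all 3 samples.

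Of 5 genes taken up for their part in the study, Notch1, a receptor that Delta and Jagged ligands activate (ENSMUST00000028288, chr2:26457903-26503822, minus strand), had boundaries of 17.3, 21 and 9.6 kb after 5 min and of 30.3, 30.2 and 30.1 kb after 15 min. The front moved from intron 2 to intron 17 at 1423 bases/min ± 311 (SE; limma, adjusted p = 0.0485). Ern1, a sensor of unfolded protein in the endoplasmic reticulum, went from 16.7, 14.8 and 11 kb to 31.2, 28.4 and 34.4 kb, at 1717 bases/min ± 232 (SE; limma, adjusted p = 0.0124). Both genes had groups that did not overlap, but the Notch1 call was lost in 4 of the 6 fits that left out a sample (limma, adjusted p up to 0.128). With trend and robust variance the calls of both Notch1 and Ern1 were lost. Itpr1, the calcium channel that opens with inositol trisphosphate, had 16.6, 30.9 and 12.4 kb against 48.5, 37.2 and 35.5 kb, also without overlap, but with an SE of 623 bases/min on a rate of 2043 bases/min it missed the threshold (limma, adjusted p = 0.120).

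Utrn, the dystrophin relative utrophin, had 22.4, 2.8 and 27.1 kb after 5 min and 3.3, 22.5 and 29.2 kb after 15 min, so that its rate of 90 bases/min ± 962 (SE; limma, adjusted p = 0.975) could not be told from 0. Polr2a, the mutated gene, is 24.6 kb long and stood at 12.4, 15.7 and 6.8 kb and then at 2.5, 2.8 and 10.1 kb (limma, adjusted p = 0.324).

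The 15-min front of Notch1 was the tightest of these genes, and its 200 bases between the lowest and the highest boundary are given in capitals with 50 bases on either side (chr2:26473473-26473772, minus strand, GRCm38.p6), since the window covers the end of an exon and the start of intron 17.
Notch1: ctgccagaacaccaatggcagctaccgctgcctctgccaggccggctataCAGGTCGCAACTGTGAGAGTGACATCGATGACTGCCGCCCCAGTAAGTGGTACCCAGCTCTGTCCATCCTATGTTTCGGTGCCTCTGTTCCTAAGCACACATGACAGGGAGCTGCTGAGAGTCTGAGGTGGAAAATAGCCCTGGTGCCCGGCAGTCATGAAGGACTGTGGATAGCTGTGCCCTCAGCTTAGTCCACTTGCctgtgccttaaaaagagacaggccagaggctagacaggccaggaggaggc

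Gene lists were read at 1 transcript for each gene and set beside all 8651 member genes tested, of which 448 (5.18%) moved forward and 754 (8.72%) backward, with a median rate of 10 bases/min over the 8923 member genes. The lists differ in gene length, which moved with direction, and the part of length in the counts was not tested. The counts are descriptions, with no test of a list as a whole.

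Of 28 pausing and elongation factors, 1 moved forward, 8 moved backward and 19 did not pass. Ell2, a subunit of the super elongation complex, was the forward gene, from 15.3, 16.3 and 19.5 kb to 48.5, 49.6 and 47.1 kb, at 3137 bases/min ± 156 (SE; limma, adjusted p = 0.00391). Supt5, the large subunit of the pausing and elongation factor DSIF, fell from 18.6, 18.9 and 16.7 kb to 2.5 kb in all 3 samples, and Tcea1, which rescues arrested RNAPII, fell from 16.7, 19.4 and 19.1 kb to 2.5, 2.5 and 4.0 kb. Cdk12 and its partner cyclin K (Ccnk), which phosphorylate the RNAPII tail, Ctr9 of the PAF complex, Nelfa of the pausing factor NELF, and Polr2b, the second largest subunit of RNAPII, were also called backward. These 7 genes named as backward were 23.6 to 48.5 kb long, and Ell2 was 64.9 kb. The list's median rate was -525 bases/min. In the 4 of its genes with all 6 boundaries above 2500 bases it was 2103 bases/min, against 1023 bases/min over all such genes.

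Of 51 splicing factors, 1 moved forward and 9 backward. Prpf4b, a kinase of the tri-snRNP, fell from 19, 21.3 and 20.1 kb to 2.5 kb in all 3 samples, and Tra2b, an SR-like regulator, from 15.1, 17.9 and 15.4 kb to the same value. Sf3b1, the branch-site recognition factor of the U2 snRNP, fell from 13.6, 13.4 and 16.6 kb. Nova1, a neuronal regulator in a gene of 124.3 kb, was the forward one, at 3090 bases/min ± 542 (SE; limma, adjusted p = 0.0257). The list had a median length of 40.5 kb and a median rate of -441.7 bases/min.

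Of 96 chromatin regulators, 6 moved forward, 8 backward and 82 did not pass, with a median rate of 143.3 bases/min. The backward calls held the deacetylases Hdac1 and Hdac2, their scaffold Sin3a, the cohesin subunit Rad21, the acetyltransferases Ep300 and Kat7, and the methyltransferases Setd1b and Nsd1. Hdac1 went from 13.3, 12.8 and 10.7 kb to 2.5 kb in all 3 samples. Ep300 went from 16.2, 23.2 and 19.1 kb to 2.5, 2.5 and 4.0 kb although the gene is 66.7 kb long, and Nsd1, of 108.5 kb, from 12.9, 19.6 and 18.9 kb to 5.2, 5.4 and 4.6 kb. The forward calls were Ezh2, the Polycomb H3K27 methyltransferase, at 3397 bases/min ± 619 (SE; limma, adjusted p = 0.0285), Asxl1 and Asxl2 of the H2A deubiquitinase complex, Phf20, Kdm3b and Hdac5.

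Of 92 ubiquitin ligases and deubiquitinases, 13 moved forward, 11 backward and 68 did not pass. The shares were 14.1% and 12%, and the median length was 79.5 kb. Among deubiquitinases, Usp7, which stabilises Mdm2 and p53, went from 16.2, 8.9 and 8.4 kb to 42.3, 36.3 and 36.8 kb, whereas Usp47 fell from 20.3, 21 and 20.1 kb to 2.5 kb in all 3 samples with an SE of 0.90 kb. That SE holds no spread from 15 min, where the 3 values of Usp47 were identical. Usp45 and the ligase Trim33 fell to 2.5 kb in all 3 samples as well, in genes of 61.6 and 79.5 kb. Mdm4, a partner of the ligase Mdm2, went from 5.1, 5.2 and 10.4 kb to 36.1, 29.0 and 43.7 kb. Those of its genes with all 6 boundaries above 2500 bases had a median rate of 2237 bases/min in 30 genes.

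Of 78 DNA repair and replication genes, 6 moved forward and 10 backward. Xpc and Ercc3 of nucleotide excision repair fell from 13.8, 17.0 and 14.6 kb and from 12.1, 14.9 and 15.1 kb to 2.5 kb in all 3 samples, and Nbn of the double-strand break sensor MRN fell likewise from 12.2, 11.4 and 14.1 kb. In the same pathway as Xpc, Ercc6, which acts in transcription-coupled repair, went forward from 13.7, 15.7 and 2.5 kb to 56.5, 50.7 and 46.5 kb, at 4060 bases/min ± 456 (SE; limma, adjusted p = 0.00790). Ercc6 is 67.5 kb long, against 26.6 kb for Xpc and 29.9 kb for Ercc3. Msh3, a mismatch repair factor in a gene of 143.1 kb, went from 7.5, 19 and 2.5 kb to 49.5, 50.1 and 43.6 kb.

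Of 70 synaptic and axon guidance genes, 4 moved forward, 0 backward and 66 did not pass in limma, and 59 of all 77 had a positive rate. Their median length was 550.5 kb and their median rate 650 bases/min. Over all members of 200 kb or more, counted as transcripts, 2121 of 2796 (75.9%) had a positive rate, with a median of 573 bases/min. Rims1, a scaffold of the presynaptic active zone, went from 2.5, 7.8 and 2.5 kb to 18.9, 21.2 and 21 kb, and Grik2, a kainate receptor subunit, from 8.9, 4.0 and 7.3 kb to 20.8, 36.7 and 28.9 kb. The Grik2 call was lost in 5 of the 6 fits that left out a sample (limma, adjusted p up to 0.116), whereas that of Rims1 passed in all 6. Both calls were lost with trend and robust variance (limma, adjusted p = 0.0801 for Grik2). Gabrg3, a GABA-A receptor subunit, went from 2.5 kb in all 3 samples to 40.5, 19.1 and 36 kb, and the fourth was Slit2. The median boundary of the list after 5 min was 6733 bases, against 10700 bases over all member genes.

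Of 23 genes of the pluripotency network and the LIF pathway, 1 moved forward and 0 backward in limma, while 4 of the 23 had non-overlapping forward and 3 non-overlapping backward boundaries, against 12.8% and 17.45% of all member genes tested. Smad1, a BMP effector, went from 14.6, 20.1 and 17.2 kb to 46.0, 54.0 and 42.6 kb, at 3023 bases/min ± 344 (SE; limma, adjusted p = 0.00809). Jak2, a kinase of cytokine receptors, had 17.7, 17.2 and 7.4 kb against 45.6, 46.8 and 28.9 kb, just outside the threshold (limma, adjusted p = 0.0547). Sos1, an exchange factor for Ras, had 11.9, 23.9 and 12 kb against 2.5 kb in all 3 samples (limma, adjusted p = 0.0900).

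Of 19 Notch pathway genes, Notch1 moved forward and 3 moved backward. The coactivator Maml1 went from 16, 17.0 and 15.8 kb to 2.5 kb in all 3 samples, and the protease Adam17, which sheds the Notch ectodomain, from 11.8, 19.8 and 13.7 kb to the same value, a call lost in 4 of the 6 fits that left out a sample (limma, adjusted p up to 0.0895). Ep300, a Notch coactivator that the chromatin list also holds, was the other. The median rate was 65.0 bases/min.

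**Figure D4:**
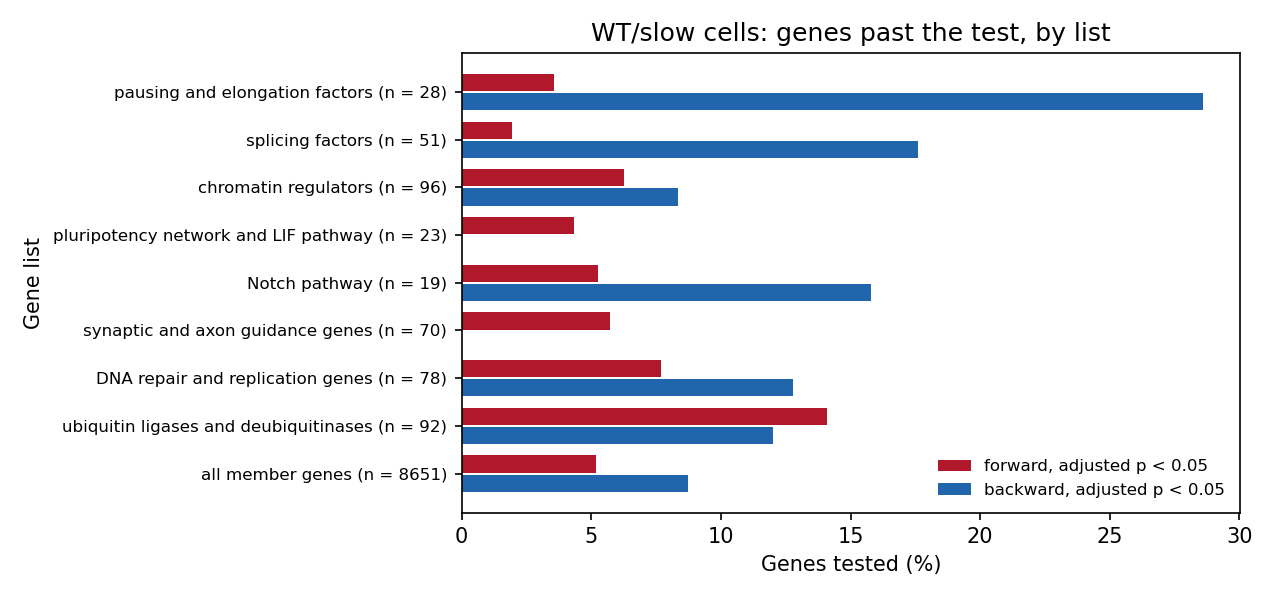
Percent of genes tested in each list that moved forward (red) or backward (blue) in WT/slow cells with an adjusted p under 0.05 in limma, at 1 transcript for each gene. Over all member genes the shares were 5.18% and 8.72%. They ranged from 1.96% to 14.1% forward and from 0 to 28.6% backward, with the largest backward share among pausing and elongation factors.

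To see what fast and slow genes share, the 1680 genes with a transcript of at least 60 kb and all 6 boundaries above 2500 bases were ordered by rate. The slowest 420 had a median rate of 95 bases/min and the fastest 420 a median of 2692 bases/min, which is what chose them. Both started from similar fronts, with median 5-min boundaries of 12.3 and 12.8 kb, and ended at 13.1 and 40.6 kb. The GC content of the first 30 kb had medians of 42.8% in the slow and 42.5% in the fast group. Exons made up 1.46% and 1.45% of these bases, the first intron measured 25.9 and 23.7 kb, and the transcripts 110.0 and 114.8 kb. For each of these 4 features, Spearman's rho with rate over genes lay between -0.0219 and 0.0227. The CG count of the 250 bases before the start differed more, with medians of 12 in the slow, 19 in the middle and 19 in the fast group, and a rho of 0.175 with rate over the 1680 genes. Genes are not replicates, and no test was made of these differences.

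Rates of single genes varied between samples. Pairing samples by replicate number, which the labels do not describe as a shared culture, the rates of the 1680 genes had a Spearman's rho of 0.218 to 0.261 between numbers. The slowest 420 by the replicate 1 samples alone had a median of -425 bases/min there, but of 615 and 1405 bases/min in replicates 2 and 3. The fastest 420 by replicate 1 had 3190 bases/min there, and 1950 and 2525 bases/min in replicates 2 and 3. The order of the groups was thus found again in samples not used to rank them, with a smaller gap. All 6 samples had a part in admitting the 1680 genes, so these samples were not independent of the choice.

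The same order appeared in the other genotypes. In WT/WT cells, the genes slowest in WT/slow cells had a median rate of 68.3 bases/min (400 genes with all 6 boundaries), the middle ones 880 bases/min (807) and the fastest 1355 bases/min (396). In slow/slow cells the medians were 625, 1540 and 1845 bases/min over 398, 802 and 412 genes. These rates include boundaries at 2500 bases, which the choice of genes had kept out of the WT/slow rates. Where all 6 boundaries of the other genotype also lay above 2500 bases, the WT/WT medians in bases/min came to 251.7 for 140 slow, 1268 for 386 middle and 1825 for 216 fast genes. The slow/slow medians then came to 1145 for 208, 1653 for 623 and 1923 for 362 genes, again in bases/min. The fast group lay below its WT/slow value in both, but it was chosen on the WT/slow values. Over genes, Spearman's rho of the WT/slow rate was 0.399 with the WT/WT rate and 0.414 with the slow/slow rate (1603 and 1612 genes), a description over points that share the transcript, its length and the wave caller.

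**Figure D5:**
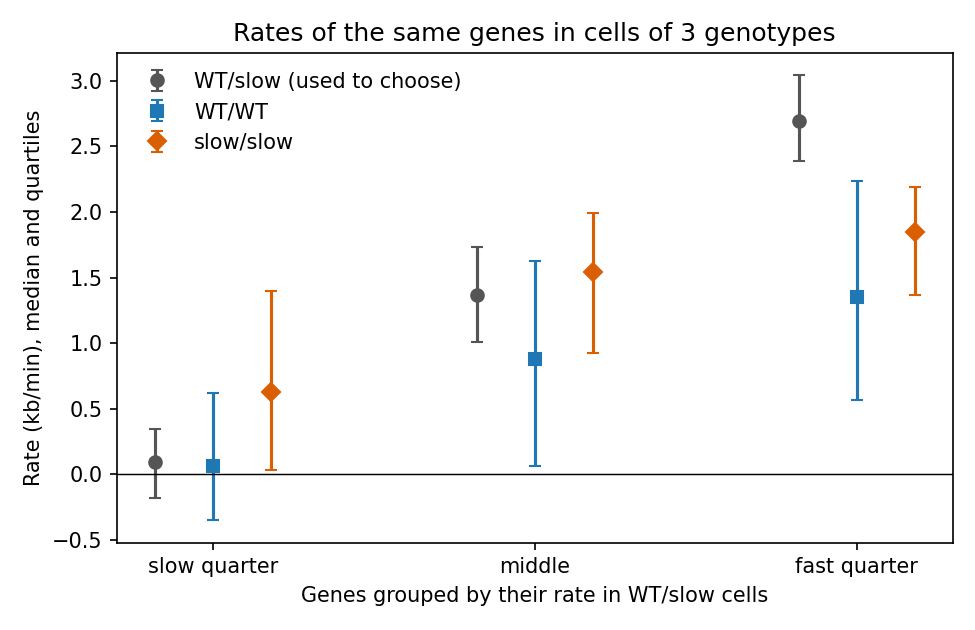
Rate from 5 to 15 min in kb/min, medians as points and quartiles as bars, of the slowest 420, middle 840 and fastest 420 genes by their rate in WT/slow cells, read in cells of 3 genotypes. The median rose from the slow to the fast group in WT/WT cells, from 68.3 to 1355 bases/min, and in slow/slow cells, from 625 to 1845 bases/min, with boundaries at 2500 bases kept in these 2 genotypes.

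After 30 min most WT/slow boundaries stood at the commonest value. Among members, 63.5%, 73.2% and 74.0% of boundaries were at 2500 bases in the 3 samples. Of the 24 boundaries of the 8 fast genes, 21 were at 2500 bases and 23 at 3000 bases or less, and of the 30 boundaries of the slow genes 18 were at 2500 bases. Pafah1b2 was the slow gene with all 3 fronts still out, at 14.1, 17.4 and 17.2 kb. In the 1680 ordered genes, a median of 33.3% of the 30-min boundaries of a gene were at 2500 bases in the slowest 420 and of 100.0% in the fastest 420.

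The change from 5 to 15 min was set against that in WT/WT and slow/slow cells with an interaction term in limma. Both comparisons use the same WT/slow samples. Against WT/WT cells, 97 of 24280 members tested (0.400%, against 0.336% of all 28830 transcripts fitted) had a higher rate in WT/slow cells, and 19 (0.0783%, against 0.0694%) a lower one. Against slow/slow cells, 468 of 22995 members (2.04%, against 1.76% of all 26807 fitted) had a higher rate in slow/slow cells and 53 (0.230%, against 0.254%) in WT/slow cells. A higher rate can be a smaller fall, as in Prpf4b, whose fronts stood at 2.5 kb in all 3 samples of both genotypes after 15 min. In the 468 transcripts, 64.7% of the WT/slow boundaries after 15 min were at 2500 bases. Where all 12 boundaries of a comparison lay above 2500 bases, limma called 0 members against WT/WT cells, with 190 at an unadjusted p under 0.05, and 6 against slow/slow cells. The 116 calls against WT/WT cells, both directions together, became 67 without replicate 3 at 5 min and 255 without replicate 1 at 15 min of the WT/slow samples, and the 521 against slow/slow cells became 1066 without replicate 3 at 15 min.

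Named genes gave examples. Mapkapk2 fell to 4.3 kb in WT/slow cells, while in slow/slow cells it went from 9.8, 6.9 and 6.7 kb to 32.8, 31.0 and 32.2 kb, a difference in rate of 3727 bases/min (limma, adjusted p = 4.06e-05). Usp45 fell to 2.5 kb in WT/slow cells and went from 13.8, 8.8 and 12.8 kb to 30.2, 29.1 and 26.9 kb in slow/slow cells. In both genes the 3 WT/WT boundaries after 15 min, at most 4.2 kb, lay on the WT/slow side. Sertad2, a fast gene, went the other way, with 33.2, 33.2 and 26.9 kb in slow/slow cells after 15 min and a difference in rate of -1843 bases/min, slow/slow minus WT/slow (limma, adjusted p = 0.0417).

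Over the 1663 transcripts with all 18 boundaries of the 3 genotypes above 2500 bases, the median rate was 1663 bases/min in WT/slow, 1337 in WT/WT and 1540 in slow/slow cells. Pairing samples by replicate number, the medians were 1370, 1550 and 2020 bases/min in WT/slow, 1660, 1040 and 1460 in WT/WT, and 1590, 1950 and 1460 in slow/slow cells. All 3 ranges overlapped (exact two-sided permutation test against WT/slow cells, p = 0.5 for WT/WT and p = 0.9 for slow/slow), and with 3 values a difference of the size of their SDs, 254 to 336 bases/min, could not have been shown.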

How the data were processed

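The deposited values were wave-front boundaries in bases, distances that the authors made from 4sU-DRB-seq reads. Reads of a directional library were aligned with bowtie 2 (Bowtie2 2.2.9 and GRCm38, mm10 in the submitters' processing notes), uniquely mapped reads outside rRNA were kept, and published software placed the end of the wave. The table names say that each sample was set against the average of the 0 min samples, so samples may share that baseline. Depth is not recoverable, no counting error can be given, and precision rests on 3 biological replicates. The DRB block is 4 h in the labels and methods but shorter in the study's results text. Samples at 0 min and without DRB were not analysed here.

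From these tables, transcripts were matched by identifier to GENCODE M21 (122200 of 122968 found, 117309 with equal coordinates). Boundaries in kb were fitted on time with limma 3.58.1 (R 4.3.3, lmFit and eBayes) over 32185 transcripts with 6 boundaries not all identical, with Benjamini-Hochberg adjustment over all and a threshold of 0.05. Interactions used 12 samples of 2 genotypes. Groups came from sample labels. Sample medians and shares had exact permutation tests (SciPy 1.17.1). Members, gene lists, naming rules and tests were chosen with earlier results of these data known. Fast, slow and backward genes were ranked by rate among protein-coding genes that passed the stated conditions, and up to 3 genes with the lowest p were named for each list; some genes are not reported here, and other list members, and Pafah1b2 at 30 min, were named after their values were seen. In simulated data, values were drawn with normal errors of the real size around each transcript's mean over both times. The fit recovered 0 of 200 transcripts shifted by 10 kb, 86 by 20 kb and 141 by 40 kb. These data had only 200 moved transcripts and no pile-up at 2500 bases, so they do not give the power of the real fit. Alternatives were other length limits, treatments of 2500 bases, scales, variance models, 1 transcript for each gene, a replicate block and each sample left out. Python 3.11.15, pandas 2.3.3, NumPy 2.4.6, pysam 0.24.0 and Matplotlib 3.10.9 were used.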

Additional observations from a re-analysis of the deposited data

Results flagged for a closer look

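Named genes whose change from 5 to 15 min differed between genotypes by the interaction test in limma are given here with the difference in rate and the adjusted p. In slow/slow minus WT/slow cells the difference was positive for B3galnt2 (3957 bases/min, adjusted p = 0.00127), Ep300 (3747, 0.000636), Mapkapk2 (3727, 4.06e-05), Trim33 (3217, 0.0230), Usp45 (3177, 8.01e-05), Desi1 (2060, 0.00300), Prpf4b (1107, 0.0122) and Usp47 (1053, 0.00339). In the first 5 genes the slow/slow boundaries after 15 min lay at 26.9 kb or beyond while the WT/slow boundaries lay at 4.5 kb or below. In Desi1, Prpf4b and Usp47 the 15-min boundaries were at 2.5 kb in all 3 slow/slow samples, and the 5-min boundaries were farther out in WT/slow than in slow/slow cells. The difference was negative for Sertad2 (-1843, 0.0417), chosen as fast in WT/slow cells. In WT/slow minus WT/WT cells, Fmr1nb differed by 2640 bases/min (adjusted p = 0.00899): its WT/WT boundaries went from 23.9, 21 and 17.7 kb to 2.5, 6.0 and 2.5 kb. These genes were named for their WT/slow values, which enter the differences.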

How the results depend on the processing

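The counts of 1414 forward and 2083 backward members changed most with the replicate block, given last. Backward calls numbered 33 with all 6 boundaries above 2500 bases, 72 with that value set to missing and 32 in a fit on transcripts of at least 60 kb, where forward calls numbered 770. A fit on 1 transcript for each gene gave 455 and 765, the log2 scale 3158 backward, and trend and robust variance 607 forward. With each sample left out in turn, the ranges were 857 to 2073 forward and 1104 to 3750 backward. The median rate of 43.3 bases/min was 10 at 1 transcript for each gene, 696.7 at 60 kb or more, 1110 with all 6 boundaries above 2500 bases, 239.6 as a mean, 0.0 from replicate medians, and 0.0 to 73.3 with each sample left out. The forward share was 75.02% and the backward share 21.2% at 60 kb or more, and 84.0% and 15.7% above 2500 bases; with each sample left out, a setting chosen after seeing the data, they ranged from 48.0% to 54.1% and from 41.5% to 48.0%. The 2500-base share was higher after 15 min by 18.9 percentage points in the members, by 17.1 to 20.3 with each sample left out, and by 1.23 at 60 kb or more. The rate of Utrn ranged from -641.7 to 841.7 bases/min with each sample left out and changed sign 3 times, at -118.3 and -453.3 without replicates 2 and 3 at 15 min and at -641.7 without replicate 2 at 5 min. Of 50 named genes called, 33 passed in all 6 fits that left out a sample, 17 were lost in at least 1 and 22 with trend and robust variance. Of 116 interaction calls against WT/WT cells, 0 were left above 2500 bases and 0 at 60 kb or more (190 and 554 at an unadjusted p under 0.05), 38 at 1 transcript for each gene and 67 to 255 with each WT/slow sample left out (67 without replicate 3 at 5 min, 255 without replicate 1 at 15 min). Of 521 against slow/slow cells, the same settings gave 6, 101, 169 and 431 to 1066 (1066 without replicate 3 at 15 min). The cause of these changes was not tested beyond the smaller number of transcripts in the restricted fits.

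With the replicate number as a block in the pairing fit, limma called 0 members forward and 0 backward (3000 and 3224 at an unadjusted p under 0.05), the median rate was 0.0, the interaction calls were 0 and 186 (1592 and 2493 at an unadjusted p under 0.05), all 50 named calls were lost, and the 2500-base share was still higher by 18.9. Deviations of samples with the same number correlated at 0.187, 0.0993 and 0.0995, each higher than with the other numbers, a hint from the data only, since no source says that numbers share a culture or day.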
